A study of Mus musculus with 16 samples.

Results

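The genes described here are 39 genes of NF-kB signalling, Toll-like receptor signalling and inflammation, followed through the open chromatin regions assigned to them in mouse haematopoietic stem cells (HSCs). The 39 genes were given as a list. Their regions were chosen by position: overlapping peaks of 16 ATAC-seq peak lists were merged, a region had to be called in 2 or more libraries, and a region belonged to the nearest protein-coding gene within 100 kb of its summit. This gave 109 member regions of 33773 regions in all, and each of the 39 genes had at least 1. At the lower edge of the rule, 8 member regions were called in exactly 2 libraries, and 10 further regions near these genes were called in a single library and left out. At the distance limit, the farthest member region lay 89658 bp from Tnfaip3 and was called in 9 libraries, and the nearest region beyond the limit lay 112590 bp from Nfkbiz and was called in 13.

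ATAC-seq marks accessible DNA by insertion of a transposase. The Omni-ATAC form of the assay was applied to 10000 sorted HSCs of male mice per library. There were 4 libraries in each of 4 groups: old post, old pre, young post and young pre. Old donors were B6 mice aged 24 months, 1 mouse per replicate, and young donors were pools of 3 to 4 B6 mice aged 8 to 12 weeks, so an old replicate is an individual and a young replicate is a mean over several. Pre libraries came from HSCs taken directly from these donors. Post libraries came from HSCs recovered 3 months after 1000 donor HSCs had been given, with 300000 Sca-1 depleted BJ helper marrow cells, to 5 lethally irradiated young BJ recipients, whose marrow was pooled. All 4 groups thus share sex and sort, and both post groups share irradiated young hosts and helper cells. Whether post HSCs were separated from recipient and helper HSCs by a donor marker is not given in the sources used here, and this applies to every post value. Each post library goes back to the same donors as the pre library of its age and number. Stage was fully confounded with the day of transposition, so stage and day cannot be told apart. Age was confounded with day in part. Old pre 1 and 2 (day 1), old post 1 and 2 (day 4) and young pre 4 (day 3) shared no day with a library of the other age.

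The measure compared was whether a region was called in a library. The peak lists on the standard chromosomes held 23287, 28498, 31003 and 14008 peaks in old post 1 to 4, 27302, 30520, 17299 and 5687 in old pre 1 to 4, 32530, 30784, 31409 and 32007 in young post 1 to 4, and 28298, 23044, 21346 and 9614 in young pre 1 to 4. Young post lists were all long, while the other groups each held at least 1 short list, so counts of calls are read against list length throughout. The number of reads behind each list is unknown here, so a missing peak says only that none was called there and not that the DNA was closed. Of 13 HSC marker genes, 12 had a region, with 100 regions between them, and Ly6a had none. Of the other cell types' lists, 6 of 10 granulocyte and monocyte markers had a region but Elane, Mpo, Ctsg and S100a8 did not. Of 6 T cell markers 4 had none, Cd3e, Cd4 and Cd8a among them. Of 5 erythroid markers 4 had a region, all but Alas2, and of 5 megakaryocyte markers 4, all but Gp6. All 6 stromal and endothelial markers had a region, 17 in all, of which 1 was called in every library. Of the stromal and endothelial regions, between 29.4% and 88.2% were called per library in old post, 5.88% and 82.4% in old pre, 82.4% and 88.2% in young post and 17.6% and 70.6% in young pre. Of the 12 granulocyte and monocyte regions the ranges were 41.7% to 83.3% in old post, 16.7% to 83.3% in old pre, 91.7% to 100% in young post and 41.7% to 66.7% in young pre. For the 100 HSC marker regions they were 31% to 86% in old post and 15% to 93% in old pre. In young post they were 84% to 86% and in young pre 24% to 81%. Of all regions, 86.0% to 90.7% were called per library in young post and 26.7% to 79.3% in young pre. High shares in young post were thus not limited to markers of other cell types. The granulocyte and monocyte shares there lay above those of all regions. The part of other cell types in the results was not tested.

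NF-kB is a family of dimeric transcription factors that are held in the cytoplasm by IkB proteins. Ligands such as microbial products, interleukin 1 and tumour necrosis factor bind Toll-like, interleukin and TNF receptors, whose adaptors recruit kinases that mark IkB for destruction and free the dimers to enter the nucleus. Among the genes they switch on are inflammatory cytokines and also the IkB proteins and ubiquitin-editing enzymes that shut the pathway down again. In HSCs, inflammatory signals are known to push cells out of quiescence and towards myeloid output, and inflammation in the marrow is a recognised feature of ageing.

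The kappaB motif, which NF-kB dimers bind, lies in start windows of 13 of the 31 member genes that have one. Of these, 6 windows are printed to show it: 2 called in every library, 3 called in nearly every library and 1 called in 8 of 16. Each is the 300 bp window, 250 bases before to 50 after the annotated start, of RefSeq on GRCm38.p6, written 5′ to 3′ on the strand of the gene, with matches to the kappaB consensus on either strand in capitals.
Nfkbia: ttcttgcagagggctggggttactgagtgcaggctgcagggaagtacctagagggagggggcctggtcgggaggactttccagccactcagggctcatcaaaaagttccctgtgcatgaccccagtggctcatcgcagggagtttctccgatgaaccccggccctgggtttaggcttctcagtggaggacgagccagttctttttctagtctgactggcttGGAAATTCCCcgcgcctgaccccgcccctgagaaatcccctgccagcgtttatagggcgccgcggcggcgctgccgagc
Nfkb2: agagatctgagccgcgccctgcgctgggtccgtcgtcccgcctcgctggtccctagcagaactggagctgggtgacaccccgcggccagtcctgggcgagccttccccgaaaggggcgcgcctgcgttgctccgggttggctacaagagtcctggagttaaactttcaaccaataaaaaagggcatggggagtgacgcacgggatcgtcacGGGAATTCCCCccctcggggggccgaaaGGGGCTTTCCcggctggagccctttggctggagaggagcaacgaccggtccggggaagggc
Tnfaip3: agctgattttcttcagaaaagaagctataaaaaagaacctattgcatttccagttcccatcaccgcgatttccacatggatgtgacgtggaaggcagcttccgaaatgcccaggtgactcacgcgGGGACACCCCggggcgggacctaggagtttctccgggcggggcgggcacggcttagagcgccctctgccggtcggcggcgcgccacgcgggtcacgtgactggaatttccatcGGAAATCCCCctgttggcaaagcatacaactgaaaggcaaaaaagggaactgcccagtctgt
Tnip1: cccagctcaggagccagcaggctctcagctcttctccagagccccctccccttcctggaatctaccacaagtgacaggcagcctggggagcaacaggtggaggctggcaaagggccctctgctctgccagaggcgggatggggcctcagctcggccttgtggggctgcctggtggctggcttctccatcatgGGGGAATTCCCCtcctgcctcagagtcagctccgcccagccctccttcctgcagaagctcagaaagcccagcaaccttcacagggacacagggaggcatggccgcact
Tlr2: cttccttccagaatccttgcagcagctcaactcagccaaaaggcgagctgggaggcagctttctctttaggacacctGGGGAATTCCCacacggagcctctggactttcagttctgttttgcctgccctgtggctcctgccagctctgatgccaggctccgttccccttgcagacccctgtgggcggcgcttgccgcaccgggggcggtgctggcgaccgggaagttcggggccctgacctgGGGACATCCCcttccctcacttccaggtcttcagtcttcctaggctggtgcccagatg
Cxcl2: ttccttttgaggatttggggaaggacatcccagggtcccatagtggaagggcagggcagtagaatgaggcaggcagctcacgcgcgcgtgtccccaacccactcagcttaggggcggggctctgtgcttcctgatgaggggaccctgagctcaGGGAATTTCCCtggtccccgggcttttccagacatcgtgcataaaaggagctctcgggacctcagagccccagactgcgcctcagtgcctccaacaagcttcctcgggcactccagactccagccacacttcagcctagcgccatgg
The Nfkbia window, at the gene of the classical inhibitor IkB alpha, is chr12:55492598-55492897 on the minus strand, and a region over it was called in 16 of 16 libraries. The Nfkb2 window, at the gene of the p100 precursor, is chr19:46304487-46304786 on the plus strand and was likewise called in 16. The Tnfaip3 window, at the gene of the ubiquitin-editing enzyme A20, is chr10:19015361-19015660 on the minus strand and was called in 15. The Tnip1 window, at the gene of an A20 partner, is chr11:54962891-54963190 on the minus strand and was called in 14. The Tlr2 window, at the gene of a receptor for bacterial lipoproteins, is chr3:83841559-83841858 on the minus strand and was called in 14. The Cxcl2 window, at the gene of a neutrophil-attracting chemokine, is chr5:90903649-90903948 on the plus strand and was called in 8.

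Start windows could be matched for 31 of the 39 genes, 38 windows in all. Ccl4, Cd40, Ikbkb, Map3k8, Nfkb1, Nfkbiz, Relb and Tlr4 had no entry. The share of genes with a kappaB consensus match in a window was thus 41.9%, against 1843 of 17273 protein-coding genes with a window (10.7%). Per window the share was 39.5% of the members' windows and 9.34% of all 21044. A looser spelling, 3 G bases, any 5 bases and 2 C bases, searched on both strands and holding every consensus match, was present for 80.6% of the member genes and 60.5% of all genes. Other motifs searched on both strands stood closer to the share in all genes. The AP-1 motif TGANTCA was in windows of 12.9% of member genes and 8.19% of all genes, the ETS motif CCGGAAG in 16.1% and 13.1%, the RUNX motif TGTGGT in 19.4% and 17.0%, and the CRE TGACGTCA in 0 member genes and 2.58% of all genes. These shares describe the letters in the windows of a list that holds known NF-kB targets, so they are no test of the list. They do not say whether a factor was bound.

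A region over a start window was called in all 16 libraries for 9 of the 31 member genes (29.0%), against 22.4% of all protein-coding genes with a window and 31.0% of those that had a region assigned to them. It was called in some libraries for 19 member genes (61.3%) and in none for 3 (9.68%), against 49.6% and 19.4% of the genes with a region. The 3 without any call were Ccl3 and Il1b, which encode a chemokine and interleukin 1 beta, and Tlr1, which encodes a partner of TLR2. Of the 13 genes with a kappaB match, Cyld, Nfkb2 and Nfkbia had a window called in 16 libraries, Il1r1, Rel, Tnfaip3, Traf3, Il6, Nfkbie, Tlr2 and Tnip1 in 13 to 15, Cxcl2 in 8 and Bcl3 in 7. The Il1r1 match lay in the second of its windows, which was called in 7. Of the 18 genes without a match, 6 had a window called in 16 libraries and 3 in none. Genes with and without a match thus both ranged widely in how often their starts were called. The window over Myd88 was called in 16 libraries through a region assigned to a neighbouring gene, so that the region assigned to Myd88 itself, 5601 bp from its start, was called in 12.

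**Figure D1:**
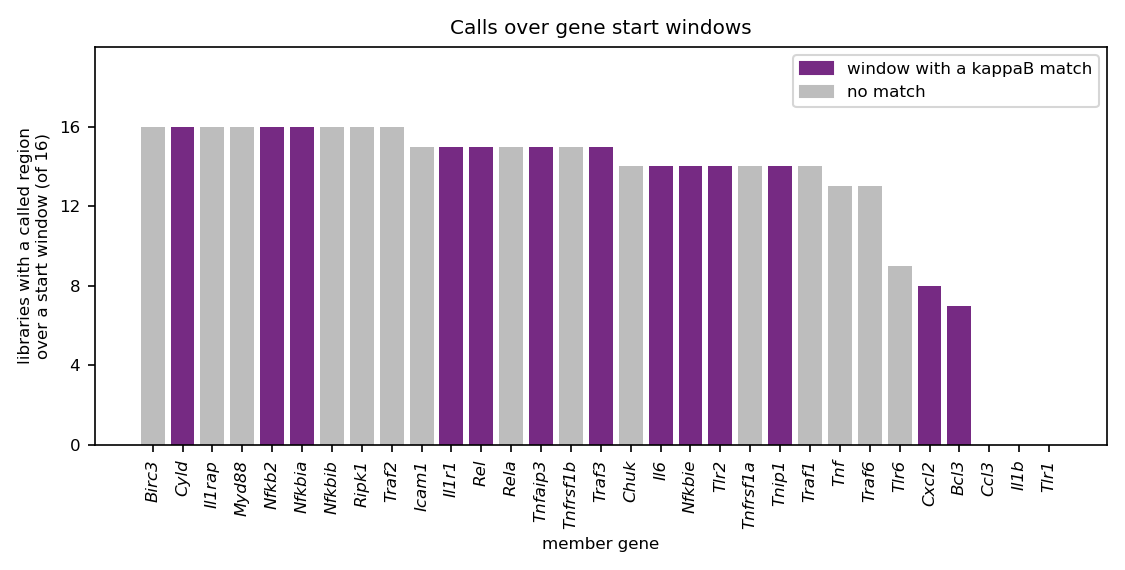
Calls over the start windows of the 31 member genes with a window. The height of a bar is the number of libraries, of 16, in which a region over any start window of the gene was called, and the colour tells whether the kappaB consensus lies in a window. Among the 9 genes called in 16 libraries 3 had a match, and Cxcl2 and Bcl3, called in 8 and 7, also had one.

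The 109 member regions had a median width of 944 bp, against 830 bp for all regions, and a median of 13 of 16 libraries called them, against 12. Of the members, 14 (12.8%) were called in all 16 libraries, 42 (38.5%) in 13 to 15, 41 (37.6%) in 4 to 12 and 12 (11.01%) in 2 or 3, while the shares among all regions were 15.6%, 29.2%, 45.0% and 10.3%. By position, 25 member regions had their summit within 1 kb of an annotated start (22.9%, against 27.5% of all regions), 40 lay within a gene (36.7%, against 40.4%) and 44 outside it (40.4%, against 28.6%). Regions of the 8 genes with no start window could only be placed within or outside the gene. Of the 44 regions outside a gene, 1 was called in all 16 libraries (2.27%, against 9.49% of all such regions).

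Calls of member regions followed the length of the peak lists closely. Members called numbered 74, 92, 97 and 50 in the 4 old post libraries, 88, 94, 54 and 14 in old pre 1 to 4, 97, 94, 99 and 99 in young post 1 to 4, and 87, 73, 71 and 27 in young pre 1 to 4. The numbers expected from regions called equally often in the whole series were 75.6, 90.8, 95.8 and 45.5 in old post, 86.5, 94.3, 57.4 and 14.2 in old pre, 99.6, 95.5, 97.1 and 98.5 in young post, and 89.9, 71.5, 70.003 and 27.8 in young pre. The largest departure was in old post 4, with 50 members called against 45.5 expected, and the old post, old pre and young pre groups overlapped widely. Of the 95 member regions not called in every library, 53 (55.8%) were called in exactly the longest lists, against 49.3% of all such regions. All 13 called in 15 libraries lacked only the shortest list, old pre 4, and all 16 called in 14 lacked the pair of shortest lists, old pre 4 and young pre 4.

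**Figure D2:**
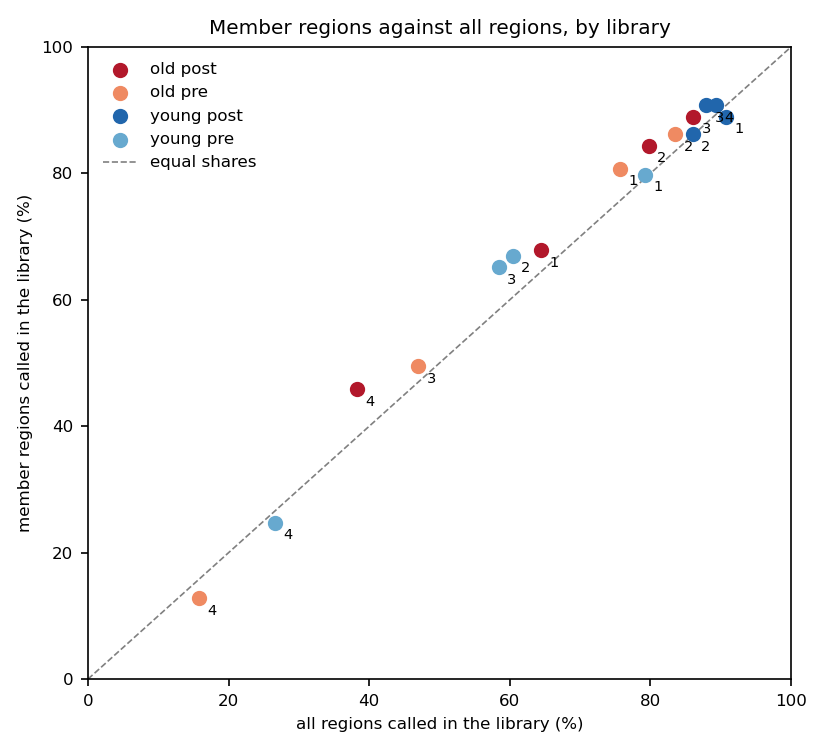
Percent of regions called in each library, for the 109 member regions on the vertical axis and all 33773 regions on the horizontal axis; each point is a library and colours mark the 4 groups. The points lie along the diagonal, and young post libraries sit together at the upper end while the other groups spread down to their shortest list.

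**Figure D3:**
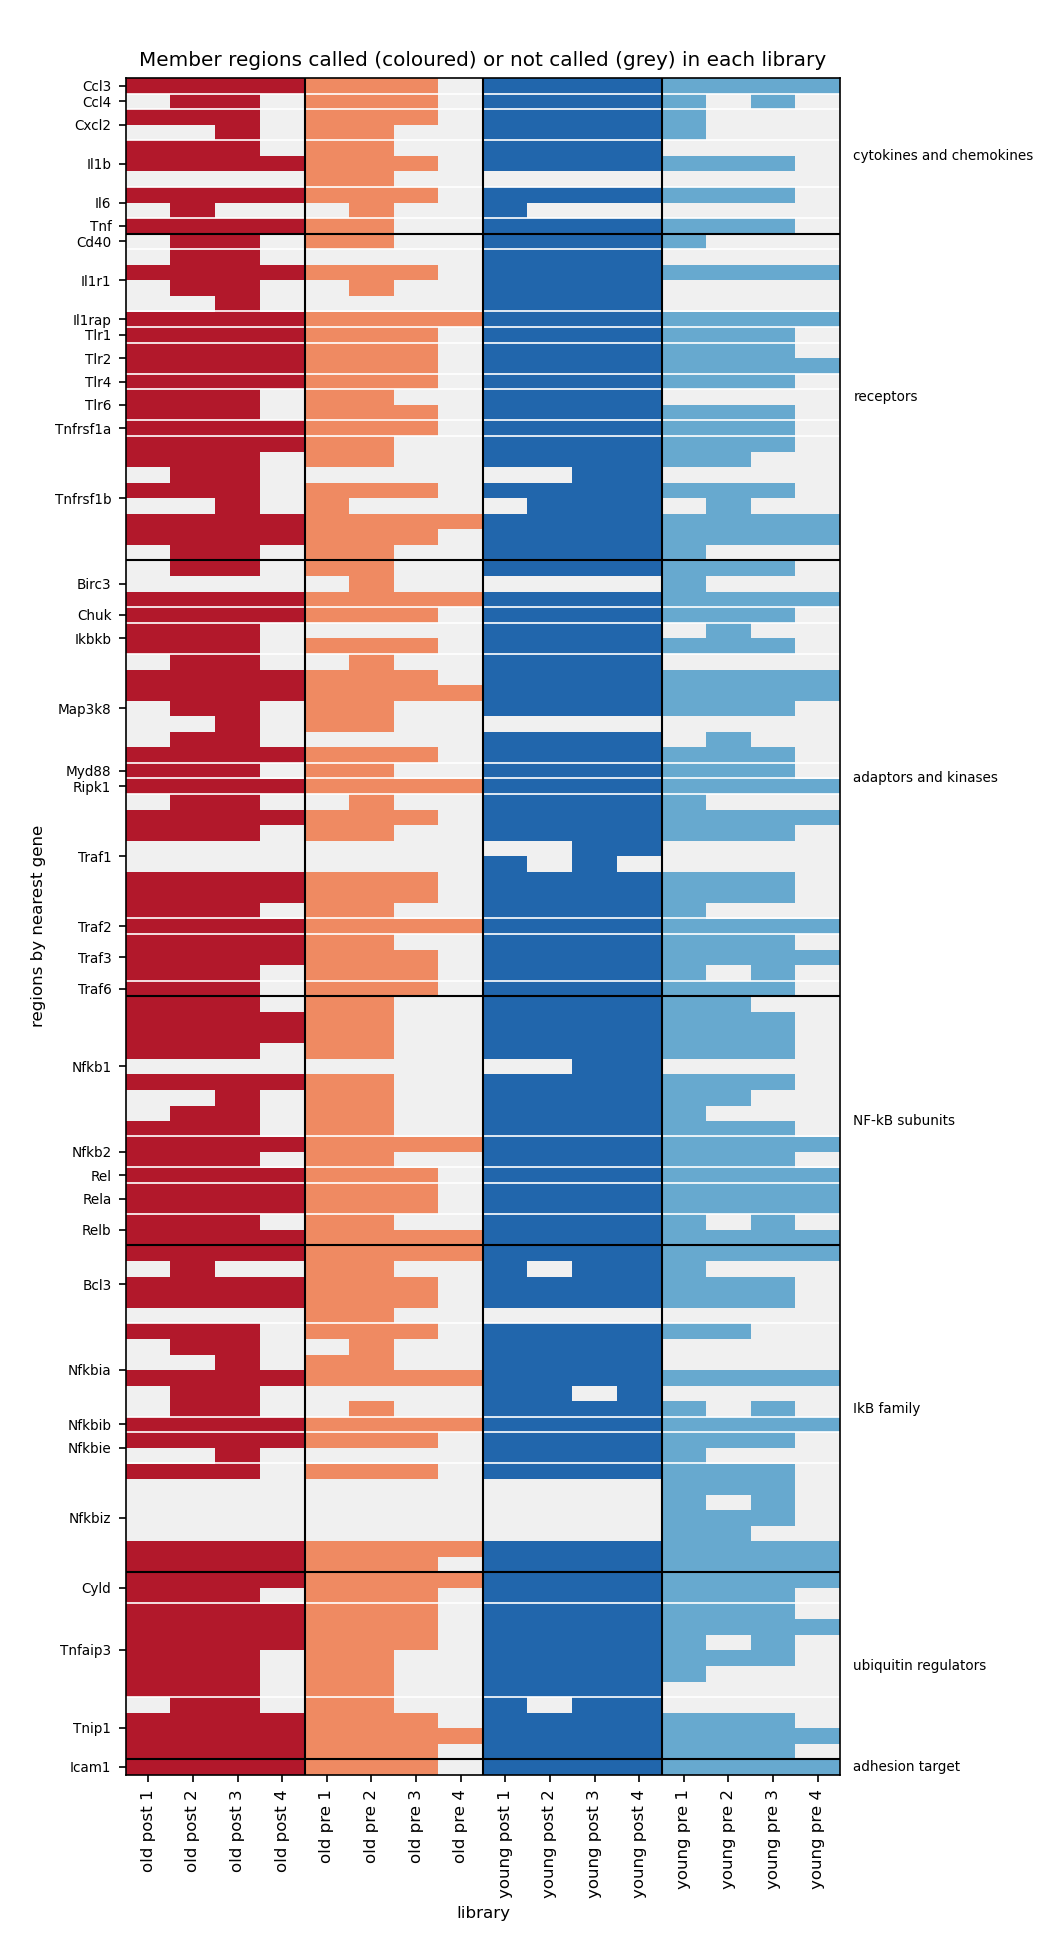
Calls of each of the 109 member regions (rows, ordered by role and gene) in each of the 16 libraries (columns, by group). Filled cells are calls; columns of the short lists, old pre 4 above all, are mostly empty, and the rows filled in young pre alone belong to Nfkbiz.

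Over all 33773 regions, 67.1% of the possible calls were made in old post, 55.5% in old pre, 88.5% in young post and 56.2% in young pre, and the shares of each role are read against these. Cytokine and chemokine genes had no region called in every library. Their 6 genes had 10 regions, and calls made were 65.0% of those possible in old post, 60.0% in old pre, 82.5% in young post and 42.5% in young pre. Il6, which encodes interleukin 6, was called at its start in 14 libraries, all but old pre 4 and young pre 4. Tnf, which encodes tumour necrosis factor, had 1 region, called in 4 old post, 2 old pre, 4 young post and 3 young pre libraries. The single region of the chemokine gene Ccl3 was called in 15 libraries, all but old pre 4. Ccl4, a neighbouring chemokine gene, had a region called in old post 2 and 3, old pre 1 to 3, young post 1 to 4 and young pre 1 and 3.

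Cxcl2 and Il1b had more than 1 region each. Cxcl2 had a region 3600 bp before its start, called in old post 1 to 3, old pre 1 to 3, young post 1 to 4 and young pre 1. The region over the Cxcl2 start, chr5:90902980-90904026, was called in old post 3, old pre 1 and 2, young post 1 to 4 and young pre 1. Thus young post was called throughout at both places and young pre in 1 library of 4, while each old group was called in 1 to 3 libraries. Il1b had 3 regions, all outside the gene. The first, chr2:129338022-129338514, lay on the far side of the gene from its start and was called in old post 1 to 3, old pre 1 and 2, young post 1 to 4 and no young pre library. The second, 2458 bp before the start, was called in 14 libraries, and the third, 31549 bp before it, only in old pre 1 and 2, which were transposed on the same day.

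Receptor genes, 9 in number, had 21 regions, 2 of them called in all 16 libraries, and calls made were 76.2% of those possible in old post, 56.0% in old pre, 96.4% in young post and 54.8% in young pre. Tlr4, which encodes the receptor for lipopolysaccharide, had a region called in 14 libraries. Tnfrsf1a, which encodes TNF receptor 1, was called at its start in the same number. Il1rap, which encodes the shared accessory chain of interleukin 1 family receptors, was called at its start in all 16. Tnfrsf1b, which encodes TNF receptor 2, had 8 regions, of which 5, 7, 8 and 3 were called in old post 1 to 4, 7, 6, 3 and 1 in old pre, 6, 7, 8 and 8 in young post and 6, 6, 4 and 2 in young pre. The order of its libraries was near that of their list lengths, and the groups overlapped. One Tnfrsf1b region inside the gene, chr4:145221941-145222416, was called only after transplantation, in old post 2 and 3 and young post 3 and 4.

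Il1r1, which encodes the signalling receptor for interleukin 1, had 4 regions, 3 of them called mainly in post libraries with long lists. Called were 1, 3, 4 and 1 of them in old post 1 to 4, 1, 2, 1 and 0 in old pre, 4 in each young post library and 1 in each young pre library. Young post did not overlap with young pre, while old post and old pre overlapped. Over all regions young post and young pre did not overlap either, at 86.0% to 90.7% and 26.7% to 79.3% called per library. The region at its upstream start was called in 15 libraries. The other 3 were chr1:40213423-40214004, called in old post 2 and 3 and all young post libraries, chr1:40266521-40267070, at a second start, called in these and old pre 2, and chr1:40270907-40271467, called in old post 3 and all young post libraries. The region at the second start was thus called in exactly the 7 longest lists, and the last in exactly the 5 longest. The first lacked a call in old pre 2, whose list was longer than that of old post 2. Tlr6, which encodes another TLR2 partner, had a region over its start, chr5:64958973-64960230, called in old post 1 to 3, old pre 1 and 2, young post 1 to 4 and no young pre library.

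Adaptor and kinase genes held 28 regions of 10 genes, of which 4 were called in all 16 libraries, and calls made were 71.4% of those possible in old post, 56.2% in old pre, 89.3% in young post and 60.7% in young pre, all within 5 percentage points of the shares of all regions. The starts of Birc3, Ripk1 and Traf2, which encode an inhibitor-of-apoptosis ubiquitin ligase, a kinase and an adaptor of TNF receptor complexes, were called in every library. Traf1, which encodes an adaptor that is itself a known NF-kB target, had 8 regions, of which 5, 6, 6 and 3 were called in old post 1 to 4, 5, 6, 3 and 0 in old pre, 7, 6, 8 and 7 in young post and 6, 4, 4 and 1 in young pre. Map3k8, which encodes the kinase Tpl2, had 7 regions, of which 3, 6, 7 and 3 were called in old post, 5, 6, 3 and 1 in old pre, 6 in each young post library and 4, 5, 4 and 2 in young pre. Young post libraries had 6 or more regions called at both genes, and the groups overlapped. Ikbkb, which encodes the kinase that marks IkB proteins, had a region inside the gene, chr8:22701205-22701940, called in old post 1 to 3, no old pre library, young post 1 to 4 and young pre 2. A region inside Map3k8 had calls in old post 2 and 3, no old pre library, young post 1 to 4 and young pre 2. A region in Birc3 and one 35966 bp outside Map3k8 were each called in old post 2 and 3, old pre 1 and 2, young post 1 to 4 and young pre 1 to 3.

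NF-kB subunit genes had 16 regions of 5 genes, 2 of them called in all 16 libraries, and calls made were 78.1% of those possible in old post, 57.8% in old pre, 96.9% in young post and 70.3% in young pre. Nfkb2 had the second strongest of all member regions, chr19:46303821-46306451 over its starts, whose signal value in the peak lists stood at a median percentile of 98.6 within a library. The starts of Rel, which encodes c-Rel, and Rela, which encodes p65, were called in 15 libraries, all but old pre 4, and Relb had a region inside the gene called in all 16. Nfkb1, which encodes the p105 precursor of p50, had 9 regions, more than any other member. Of these, 6, 7, 8 and 3 were called in old post 1 to 4, 8, 8, 0 and 0 in old pre, 8, 8, 9 and 9 in young post and 8, 7, 5 and 0 in young pre. Its region chr3:135690327-135691210 had calls in old post 3, old pre 1 and 2, young post 1 to 4 and young pre 1 and 2. Old pre was split between a pair of libraries with 8 and a pair with none. The pair with none had the shorter lists, 17299 and 5687 peaks against 27302 and 30520. It shared a transposition day with young pre 1 to 3, where 8, 7 and 5 were called.

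IkB family genes had 21 regions of 5 genes, of which 4 were called in all 16 libraries, and calls made were 56.0% of those possible in old post, 50% in old pre, 73.8% in young post and 57.1% in young pre. Of the 21, 4 are the Nfkbiz regions described next, called in young pre alone. Without them the shares were 69.1% in old post, 61.8% in old pre, 91.2% in young post and 55.9% in young pre. Bcl3, which encodes an atypical nuclear IkB protein, had a region inside the gene called in all 16 libraries at a median signal percentile of 98.2, while its start was called in old post 2, old pre 1 and 2, young post 1, 3 and 4 and young pre 1. Nfkbia had 6 regions, with its start called in every library. Called were 2, 5, 6 and 1 of them in old post 1 to 4, 3, 5, 2 and 1 in old pre, 6, 6, 5 and 6 in young post and 3, 2, 2 and 1 in young pre. Young post lay above young pre in every library, and the old groups overlapped. The share of all regions called also separated the young groups, at 86.0% to 90.7% per library in young post and 26.7% to 79.3% in young pre. Its first region, 25136 bp past the gene, had calls in old post 1 to 3, old pre 1 to 3, young post 1 to 4 and young pre 1 and 2. The region 2603 bp before its start had calls in old post 2 and 3 and young post 1, 2 and 4 only, and the one 6552 bp before it in old post 2 and 3, old pre 2, young post 1 to 4 and young pre 1 and 3. Nfkbib, which encodes IkB beta, was called at its start in all 16, and Nfkbie, which encodes IkB epsilon, at its start in 14. A second Nfkbie region, inside the gene, had calls in old post 3, no old pre library, young post 1 to 4 and young pre 1.

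Nfkbiz encodes IkB zeta, a nuclear IkB protein that is needed for a subset of secondary inflammatory genes. Its 7 regions showed a pattern seen at no other member: 4 neighbouring regions were called in young pre libraries alone. They were chr16:55808963-55811611 and chr16:55812544-55813497, called in young pre 1, 2 and 3, chr16:55811727-55812442, called in young pre 1 and 3, and chr16:55813613-55816832, called in young pre 1 and 2. They lie beside chr16:55817700-55822914, a region of 5215 bp called in all 16 libraries at a median signal percentile of 99.0, the highest among members. Of the 7 regions, 3, 3, 3 and 2 were called in old post 1 to 4, 3, 3, 3 and 1 in old pre, 3 in each young post library and 7, 6, 6 and 2 in young pre. The 3 longer young pre lists thus stood above every other library, and young pre 4, a short list, did not.

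Across the whole stretch of chr16:55808963-55822914, 13952 bp that overlap the lower end of the Nfkbiz gene span of 55811375 to 55838954, peaks covered 2808, 3311, 4672 and 1807 bases in old post 1 to 4, 3338, 5161, 4900 and 936 in old pre, 3838, 3996, 3761 and 3750 in young post and 12373, 6772, 7263 and 1109 in young pre. Coverage was 88.7%, 48.5% and 52.1% of the stretch in young pre 1 to 3, and between 6.71% and 37.0% in all old and young post libraries. The stretch was split into 5, 6, 4 and 1 peaks in young pre 1 to 4 and into 1 or 2 elsewhere. Young pre 1 to 3 were transposed on day 2 together with old pre 3 and 4, where 4900 and 936 bases were covered, in short lists of 17299 and 5687 peaks. The part of the day in this pattern was not tested. The summed signal value of its peaks is not normalised between libraries. It was 3414, 4200, 4500 and 1050 in old post, 4608, 6907, 3903 and 539.7 in old pre, 5179, 4494, 4915 and 5006 in young post and 9924, 4751, 5035 and 932.7 in young pre. Young pre 1 was thus the highest library, while young pre 2 and 3 lay within the range of young post. Of the 109 members 4 were called in young pre alone (3.67%), against 102 of all 33773 regions (0.302%). These 4 lie side by side in this stretch and share libraries, so they are not independent and the share rests on 1 gene. Of 13887 genes with a region, 2 had at least 4 such regions, Nfkbiz being 1 of them. This pattern was chosen after its values were seen and these counts are a description.

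**Figure D4:**
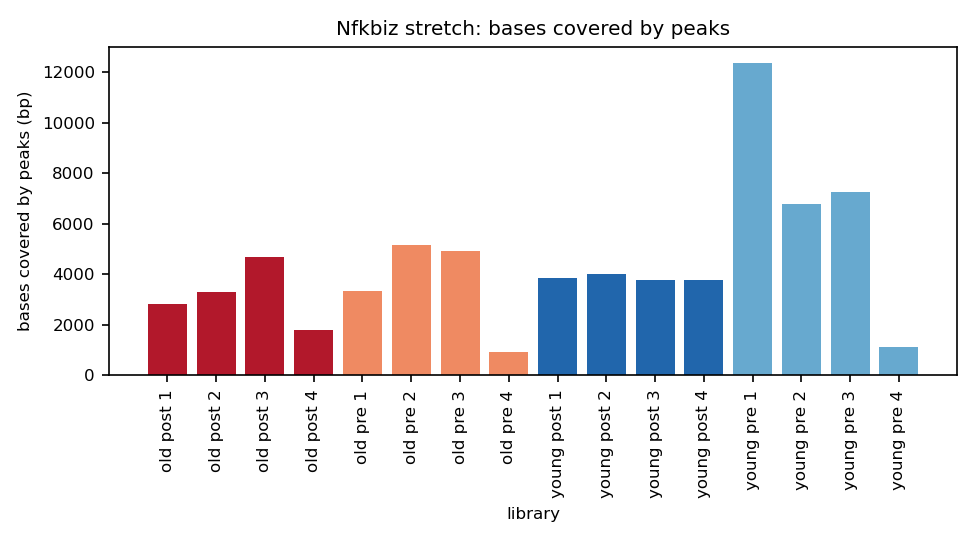
Bases covered by called peaks in the 13952 bp stretch at Nfkbiz, for each of the 16 libraries (bars, coloured by group). Young pre 1 to 3 had 12373, 6772 and 7263 covered bases and no other library had more than 5161.

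Ubiquitin regulators of the pathway, Tnfaip3, Tnip1 and the deubiquitinase gene Cyld, had 12 regions, 2 of them called in all 16 libraries, and calls made were 87.5% of those possible in old post, 70.8% in old pre, 97.9% in young post and 62.5% in young pre. Tnfaip3 had 6 regions, its start and 5 places up to 89658 bp away. Called were 6, 6, 6 and 3 of them in old post 1 to 4, 6, 6, 3 and 0 in old pre, 6 in each young post library and 5, 3, 4 and 1 in young pre. Its old pre and young pre libraries overlapped, and young pre had no library with all 6. One Tnip1 region inside the gene, chr11:54921658-54922149, had calls in old post 2 and 3, old pre 1 and 2, young post 1, 3 and 4 and no young pre library. Icam1, which encodes an adhesion molecule and is a known NF-kB target, had 1 region, over its start, called in 15 libraries.

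Whether age or transplantation changed the calls at single regions was tested with an exact conditional test that weights each library by its overall rate of calls, two-sided, with Benjamini-Hochberg adjustment over all regions called in a middle number of libraries. No member region passed the adjusted threshold of 0.05 in any of the 4 comparisons. In old pre against young pre 0 of 33 member regions tested were called different, as were 0 of 9407 regions overall (0%). In old post against young post it was 0 of 10 members, against 24 of 5163 regions (0.465%), all called more often in old. With both stages pooled it was 0 of 41 members, against 41 of 15182 regions (0.27%), 38 of them called more often in old. In post against pre, stratified by donor, it was 0 of 41 members, against 39 of 15182 regions (0.257%), all called less often in post. At these shares fewer than 1 of the members tested would pass in each comparison. At an unadjusted exact p under 0.05, 2 members passed in old pre against young pre and 0 in the other 3 comparisons, against 2.29% of all regions in old pre against young pre, 1.84% in old post against young post, 4.56% with both stages pooled and 2.92% in post against pre.

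List length limited what this test could show. A region called in 0 old post and 4 young post libraries gives an exact p of 0.347, and one called in all 8 post and no pre libraries gives 0.0594, so these patterns could not pass. At an unadjusted exact p under 0.05, 0 of 5163 regions were called less often in old post than in young post. In post against pre, 0 of 15182 were called more often in post at that threshold. In total 9 of 109 member regions had calls in 4 of 4 young post libraries and in no young pre library, against 2409 of all regions (7.13%), a share near that of the members. They were Il1b region 1, Il1r1 regions 1, 3 and 4, Map3k8 region 1, Nfkbia regions 2 and 3, Tlr6 region 1 and Tnfaip3 region 6, numbered along the chromosome. No member was called in all libraries of one age and none of the other, where 513 of all regions (1.52%) were called in no old post and all young post libraries.

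In old pre against young pre, the 2 members with an unadjusted p under 0.05 were the Nfkbiz regions chr16:55808963-55811611 and chr16:55812544-55813497, each called in 0 of 4 old pre and 3 of 4 young pre libraries (exact p = 0.00337, adjusted p = 0.360 for each). Both lie in the same stretch and were called in the same libraries, so they are not separate observations. At that unadjusted threshold 0.935% of all regions were called less often in old pre. On day 2 alone, which holds old pre 3 and 4 with short lists and young pre 1 to 3, the same calls gave an exact p of 1 for each. There the young pre lists were all longer than the old pre ones, so these calls were the likeliest ones by list length. The p of that day therefore could not show a difference for these calls. The next member region called less often in old pre was 6552 bp before the Nfkbia start, in 1 old pre and 2 young pre libraries (exact p = 0.234). The region with the smallest p among those called more often in old pre was the one before the Cxcl2 start, in 3 old pre and 1 young pre libraries (exact p = 0.134, adjusted p = 0.999). The region in Ccl4 and one 25136 bp past the end of Nfkbia, each called in 3 old pre and 2 young pre libraries, followed (exact p = 0.229 for each).

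In old post against young post, the region called only after transplantation in Tnfrsf1b had the smallest p, with 2 calls in each age, against 0.981 expected in old post (exact p = 0.163, adjusted p = 1). Regions 2603 bp before the Nfkbia start and inside Tnip1, called in 2 old post and 3 young post libraries, followed (exact p = 0.413 for each). In the direction of fewer calls in old post were the Cxcl2 start, Il1r1 region 4 and a region inside Nfkb1, chr3:135690327-135691210, each called in 1 old post and 4 young post libraries (exact p = 1 for each). With both stages pooled, the region before the Cxcl2 start was called in 6 old and 5 young libraries, against 4.84 expected in old (exact p = 0.0623, adjusted p = 0.812). Il1b region 1 and the Tlr6 start were each called in 5 old and 4 young libraries (exact p = 0.133 for each). In the other direction a region inside Nfkbie, chr17:45557910-45558526, was called in 1 old and 5 young libraries (exact p = 0.171). Regions in Birc3 and outside Map3k8, each called in 4 old and 7 young libraries, came after it (exact p = 0.285 for each).

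In post against pre, the Ikbkb region was called in 7 post and 1 pre libraries, against 5.37 expected in post (exact p = 0.0581, adjusted p = 1). The Tnfrsf1b region was called in 4 post and 0 pre libraries (exact p = 0.384), and a region inside Map3k8 in 6 post and 1 pre libraries (exact p = 0.426). Fewer calls in post than list length would give were seen by small margins at the Cxcl2 start, with 5 post and 3 pre calls against 5.51 expected in post, at Ccl4, with 6 post and 5 pre calls against 6.15, and at the Nfkb1 region, with 5 post and 4 pre calls against 5.54 (exact p = 1 for each).

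To combine the regions of a gene, each gene was given a score per library, the mean over its regions of the observed call minus the share called in the library of all regions with the same number of calls in the series, in percentage points. Scores were compared in 1 limma fit over 7857 genes, with donor as a block and Benjamini-Hochberg adjustment over all of them. Of the 39 members, 21 had a region called in 4 to 12 libraries and were tested, and the remaining 18, Nfkbiz among them, were not. No member gene passed an adjusted p of 0.05 in any of 7 comparisons. The shares called over all genes were 0% in old pre against young pre, 1.11% in old post against young post, 0.891% in old against young with both stages pooled, 0.153% in post against pre, 0% in old post against old pre, 0.662% in young post against young pre and 0% for the difference of the 2 changes. With limma, at an unadjusted p under 0.05, the members numbered 4, 0, 2, 5, 1, 3 and 1 in these 7 comparisons, against 12%, 7.87%, 14.4%, 14.1%, 9.72%, 10.3% and 5.96% of all genes.

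In old pre against young pre, Il1b and Cxcl2 had the largest score differences with an unadjusted p under 0.05. Il1b scored 34.4, 21.9, -0.77 and -0.077 points in old pre 1 to 4 and -34.5, -10.7, -4.24 and -1.91 in young pre 1 to 4. In score every old pre library was above every young pre library, and the fitted difference was 26.7 ± 8.84 points (SE; limma adjusted p = 0.311). The share of all genes that separate in this way was not counted. The highest scores were those of old pre 1 and 2, transposed on day 1, which holds no young library. In calls the groups overlapped. Of its 3 regions, 3, 3, 1 and 0 were called in old pre 1 to 4 and 1, 1, 1 and 0 in young pre 1 to 4. Old pre 3 and 4 thus equalled young pre 3 and 4 in calls, and their scores differed only through the calls expected in each list. Cxcl2 scored 27.5, 10.9, 42.3 and -0.025 points in old pre and 17.8, -35.6, -34.4 and -0.025 in young pre. Young pre 1 and 4 lay within the range of old pre, and the difference was 33.2 ± 12.7 points (limma adjusted p = 0.324). Tlr6 and Tnfaip3 were also higher in score in old pre, by 21.5 ± 9.36 and 12.3 ± 5.45 points (limma adjusted p = 0.324 for each). On the shared day 2 alone, the differences were 5.78 points for Il1b, 39.1 for Cxcl2, 8.97 for Tlr6 and 6.001 for Tnfaip3 (limma adjusted p = 0.828, 0.359, 0.755 and 0.877). With every longer list cut to its 14008 strongest peaks the Il1b and Tnfaip3 differences were -1.89 and -2.13 points, and with peaks of at least 2 times the smallest signal value -8.15 and -0.430, so their direction turned with the peaks counted. All 4 differences in the whole comparison were positive, against 6.39% of all genes that were higher at that unadjusted threshold and 5.6% lower. The median difference was 2.18 points over the 21 members and -1.82 over all genes.

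In old post against young post none of the 21 genes had an unadjusted limma p under 0.05, and their differences ran from -20.2 to 10.9 points, with a median of -0.180 against -0.359 over all genes. With both stages pooled, the old score of Il1b was above the young score by 18.8 ± 6.19 points (limma adjusted p = 0.197) and that of Tnfaip3 by 10.1 ± 3.82 (limma adjusted p = 0.268). Neither passed, and the median over members was 2.45 against -1.15. On shared days alone the differences were 3.23 points for Il1b and 6.27 for Tnfaip3 (limma adjusted p = 0.867 and 0.724). Il1b scored 21.3, 0.189, -3.26 and 1.59 points in the old post libraries and -8.04, -3.09, -5.15 and -7.64 in the young post ones, so old post 3 lay below young post 2 and the groups overlapped there. Peaks with at least 2 times the smallest signal value of their list are called strong peaks here. With strong peaks alone, the pooled Il1b difference was -21.2 points (limma adjusted p = 0.213) and that of Tnfaip3 -3.98 (limma adjusted p = 0.646). The direction at both genes thus depended on whether weaker peaks were counted.

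In post against pre, Il1r1 had the smallest p of the member genes. Its score was -7.01, 13.4, 18.2 and -0.0358 points in old post 1 to 4, -21.2, -10.1, -1.62 and -0.42 in old pre, 6.59, 18.7, 14.5 and 11.2 in young post and -31.5, -8.75, -2.15 and 0.322 in young pre. Young post lay above young pre in every library, old post overlapped with old pre, and the difference over both ages was 18.9 ± 5.48 points (limma adjusted p = 0.127). The share of all genes whose young groups separate in this way in score was not counted. Within young it was 23.3 ± 7.74 points (limma adjusted p = 0.286). Restricted to strong peaks, these were 0 and -4.31 points (limma adjusted p = 1 and 0.717), so this difference too depended on whether weaker peaks were counted. Traf1 and Tnfaip3 were higher in post by 8.48 ± 3.497 and 8.96 ± 3.89 points (limma adjusted p = 0.287 and 0.312). Birc3 was lower by 15.02 ± 5.24 points and Bcl3 lower by 11.1 ± 5.20 (limma adjusted p = 0.188 and 0.354). With strong peaks Traf1 was at -0.440 and Bcl3 at 2.03 points, and with longer lists cut to 14008 peaks Bcl3 was at 7.23, so both turned. Of all genes 8.11% were higher and 5.94% lower at the unadjusted threshold, and the median difference was 2.78 points over members and 0.528 over all genes.

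Nfkb1 passed in 1 alternative. With every list longer than 14008 peaks shortened to its 14008 strongest, the third shortest list, the Nfkb1 difference in post against pre was 41.6 ± 10.98 points (limma adjusted p = 0.0377), while with whole lists it was 6.29 ± 6.54 (limma adjusted p = 0.698). In that alternative 12 members could be tested and 202 of 3262 genes passed.

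Within old, the Cxcl2 score was -0.323, -40.5, 3.4 and -1.08 points in old post 1 to 4 and 27.5, 10.9, 42.3 and -0.025 in old pre. The difference was -29.8 ± 12.9 points (limma adjusted p = 0.494), with old post 2 far below the other three. Within young, the Cxcl2 score difference was 15.6 ± 12.9 points (limma adjusted p = 0.703). The Cxcl2 start region was called there in 4 post libraries, against 1 pre library, and every young post list was longer than every young pre list. Birc3 was lower in score by 19.9 ± 7.41 points and Traf1 higher by 10.7 ± 4.95 (limma adjusted p = 0.341 and 0.482). The test of whether the change after transplantation differed between old and young gave Cxcl2 the smallest p, at -45.3 ± 18.2 points (limma adjusted p = 0.700). No member passed, and the median over members was -4.43 points against 1.16 over all genes.

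**Figure D5:**
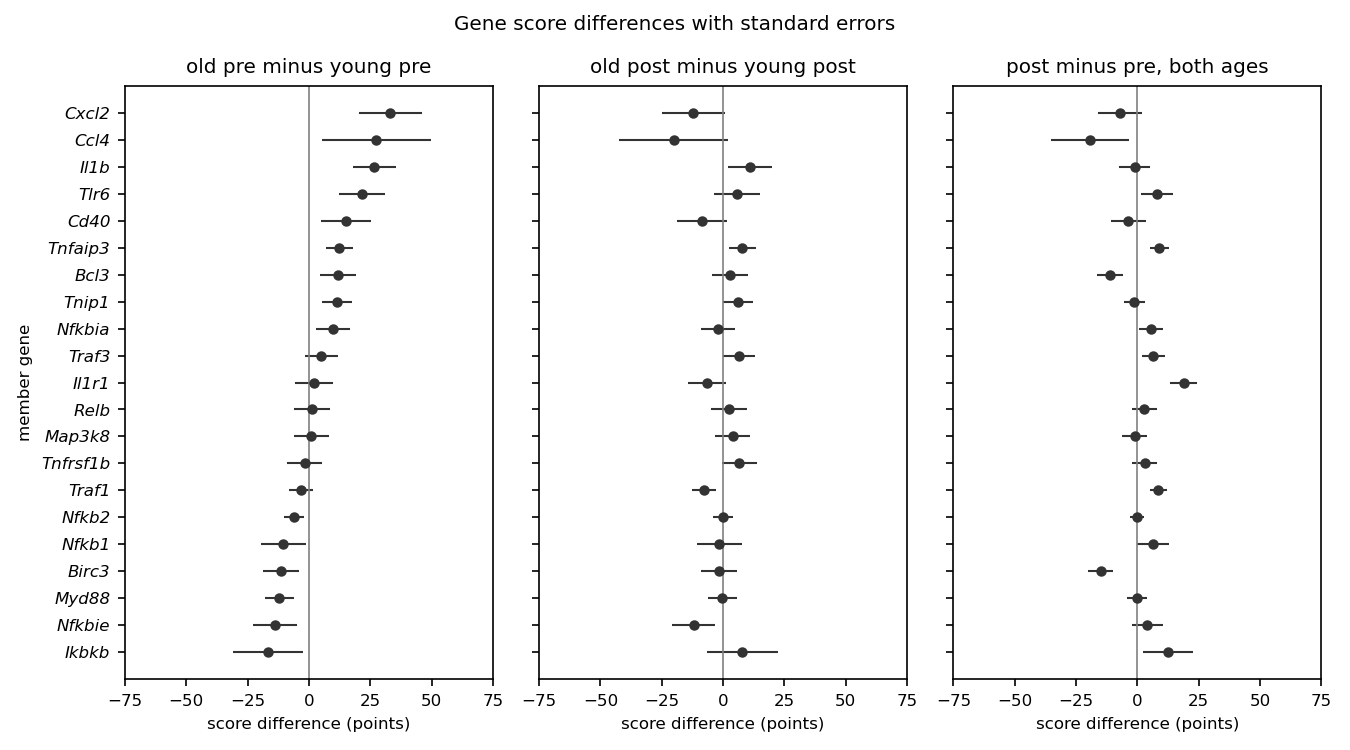
Score differences of the 21 tested member genes, in percentage points with the standard error of the limma fit as bars, in old pre minus young pre, old post minus young post, and post minus pre over both ages. Il1b, Cxcl2, Tlr6 and Tnfaip3 lie above 0 in old pre against young pre, and Il1r1 lies highest in post against pre at 18.9 points; no gene passed the adjusted threshold of 0.05.

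A second list held 74 other genes of the pathway, all of which matched the gene table. Of these, 68 had a region and Cxcl10, Il1rl1, Lta, Sele, Sharpin and Tlr7 had none. Their 178 regions included 25 called in all 16 libraries. In the same limma fit 47 of them were tested and none passed in any of the 7 comparisons. The smallest p in each direction in old pre against young pre belonged to the monocyte chemokine gene Ccl2, at 39.5 ± 13.4 points, and the BAFF receptor gene Tnfrsf13c, at -41.0 ± 11.9 points (limma adjusted p = 0.311 for each). In old post against young post they belonged to the kinase gene Map3k7, at 16.5 ± 6.32, and the paracaspase gene Malt1, at -14.5 ± 5.43 (limma adjusted p = 0.426 and 0.403). With both stages pooled they were the chemokine gene Cxcl1, at 42.6 ± 16.4, and Map3k14, which encodes the NF-kB-inducing kinase, at -16.3 ± 5.26 (limma adjusted p = 0.276 and 0.189). On shared days alone Ccl2 was at 11.6 points, Tnfrsf13c at -5.24, Map3k14 at -3.45 and Map3k7 at -0.218, and with strong peaks Ccl2 was at -3.59. The Map3k7 and Ccl2 differences thus turned in direction.

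In post against pre the alarmin gene Il33 was highest, at 31.7 ± 8.93 points (limma adjusted p = 0.127), and the lymphotoxin beta gene Ltb lowest by p, at -24.3 ± 9.86 (limma adjusted p = 0.276). Within old they were Il33, at 33.7 ± 12.6, and the chemokine gene Cxcl3, at -30.7 ± 13.3 (limma adjusted p = 0.449 and 0.494). Within young they were Tnip2, which encodes another A20 partner, at 17.8 ± 6.73, and Ltb, at -32.2 ± 13.9 (limma adjusted p = 0.342 and 0.437). For the difference of the changes they were the inflammasome gene Nlrp3, at 63.0 ± 23.1, and the adhesion gene Vcam1, at -43.0 ± 19.6 (limma adjusted p = 0.700 for each). The other pathway genes thus showed single genes with large differences and wide errors, as the members did, and no gene of either list passed.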

How the data were processed

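ATAC-seq peak lists of 16 libraries were used, 4 in each of 4 groups. Per the submitters' processing notes, reads were handled with FastQC, MultiQC, Trim Galore and cutadapt, peaks were called with Genrich on mm10, and ChIPseeker, featureCounts and DESeq2 were also used. For the aligner, the versions and the settings, the sources used here give nothing. Peaks were called by library, and the deposited lists give for each peak a score (the signal value) that is not normalised between libraries. It was read as an area, so strong peaks can also be broad ones. The member regions with the highest median percentiles, at Nfkbiz, Nfkb2 and Bcl3, were 5215, 2631 and 2628 bp wide, against a member median of 944 bp. The deposited −log10 p and q values of each peak were not compared. Of 387029 peaks, 393 outside chromosomes 1 to 19 and X were left out. The reads per library are unknown, so no counting interval is given.

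The 39 genes, the second list of 74 pathway genes, the markers and the motifs were chosen with earlier results of these data known. Values in every library are given for the 3 member regions per direction with the smallest p in each region comparison and for the 5 genes with the most regions. Gene results with an unadjusted p under 0.05 are given as well, as are, of the other pathway genes, the smallest p per direction. Peaks overlapping by at least 1 bp were merged and assigned with the RefSeq gene table of GRCm38.p6 (21627 protein-coding genes). A region inside several genes went to the one whose end was closest. The result of 1 marker list is not reported here. Start positions, and with them the class of regions within 1 kb of a start, came from the RefSeq start windows.

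Library weights of the exact test came from a Rasch model fitted by conditional maximum likelihood over all regions. Tested were regions with 4 to 12 calls among 16 libraries, and with 3 to 5 where 8 were compared. Pooled over both stages, it treats the libraries of a donor as independent. Gene scores sum to 0 over the 16 libraries. They were fitted with limma 3.58.1 in R 4.3.3, with the 4 groups as coefficients and donor as a random block. On simulated data the fit recovered the direction of changed genes but called none after adjustment, so the lack of calls is a weak statement. The other tools were scipy 1.17.1, numpy 2.4.6, pandas 2.3.3 and matplotlib 3.10.9 under Python 3.11.15. Pairing of post and pre by donor comes from the series design. Correlations of same-donor deviations from the group means were between -0.121 and -0.0121 in old and between -0.0112 and 0.0701 in young, and the consensus correlation of the fit was -0.0182. The alternatives were other merging, distance and library minimums, shortened or stricter lists, Fisher's exact test, other blocks, shared transposition days, and leaving out libraries.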

Additional observations from a re-analysis of the deposited data

Results flagged for a closer look

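In 13 cases a single library stood far from the other three of its group in the score of a member gene, or 15.5% of the 84 pairs of a tested member gene and a group, against 16% of the 31428 such pairs over all 7857 tested genes. The threshold is one that chance passes in about 1 in 20 groups of normally distributed values, and the members' share lay near that of all genes. Scores are in percentage points. In old post 1, Ccl4 scored -78.4 (others -1.90 to 0.700), Cd40 -35.2 (others -0.115 to 6.87), Birc3 -26.5 (others -4.27 to -0.633) and Relb 10.8 (others -0.950 to 0.350). In old post 2, Cxcl2 scored -40.5 (others -1.08 to 3.40), and in old post 4 Traf3 scored 24.8 (others 0.0389 to 1.09). In old pre 3, Ccl4 scored 86.7 (others -0.0500 to 6.55), Myd88 -24.6 (others -0.0389 to 0.699) and Nfkb2 -12.3 (others -0.0194 to 0.350). In young post 2, Bcl3 scored -19.7 (others -4.21 to -1.11) and Tnip1 -21.0 (others 0.917 to 3.02). In young pre 1, Nfkbie scored 29.9 (others -5.95 to -1.35), and in young pre 2 Traf3 scored -26.1 (others 0.00930 to 2.54). Several of these genes, such as Ccl4, Cd40 and Myd88, have a single region, so that their score is decided by 1 call.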

How the results depend on the processing

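No member region passed under any alternative run, and no member gene did except Nfkb1, so that the count of member genes called in post against pre was 1 with lists shortened to the third shortest. Leaving out each library in turn, the 3 shortest lists together, or all but the shared transposition days gave 0 in every comparison that could be run. Without the donor as replicate block, 0 member regions and 0 member genes passed in post against pre, and with the replicate number as a replicate block in old against young it was also 0. The numbers of old and young libraries share no stated source. Same-number correlations were between -0.231 and 0.0511 in the pre libraries.

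Values of single regions are calls minus expected calls. With Fisher's exact test these turned round or fell to 0, in old post against young post, for Tnfrsf1b region 3 (0), Nfkbia region 5 (-0.5) and Tnip1 region 1 (-0.5). In post against pre they did so for Cxcl2 region 2 (1), Ccl4 region 1 (0.5) and Nfkb1 region 7 (0.5). Leaving out each library in turn gave Ccl4 region 1 values between -0.183 and 0.0297 there, and it turned without old post 1 (0.0297) and without old pre 1 (0.0287). In old against young, Il1b region 1 was at -1.24 with strong peaks, Tlr6 region 1 at -0.387 with shortened lists and Nfkbie region 2 at 0.0235 on shared days.

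Gene scores that turned round or fell to 0, in points, were in old pre against young pre Il1b (-1.89 with shortened lists, -8.15 with strong peaks), Tnfaip3 (-2.13 and -0.430) and Ccl2 (-3.59 with strong peaks). With both stages pooled they were Il1b (-21.2 with strong peaks) and Tnfaip3 (-9.87 with shortened lists, -3.98 with strong peaks). In post against pre they were Bcl3 (7.23 with shortened lists, 2.03 with strong peaks), Il1r1 (0 with strong peaks) and Traf1 (-0.440 with strong peaks). Il1r1 in young post against young pre was at -4.31 with strong peaks, and Map3k7 in old post against young post at -0.218 on shared days. The causes were not tested. In all, 241 counts of members and 1118 other values stayed on the same side. The median difference of the member genes moved by more than the spread between libraries in 38 alternatives. It lay between -8.045 and 13.5 points in old pre against young pre, -3.30 and 2.49 in old post against young post, -8.44 and 6.07 in old against young pooled, 0.521 and 10.3 in post against pre, -0.782 and 21.2 within old, 0.701 and 11.6 within young, and -8.34 and 2.08 for the difference of the changes.

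The limits are list length, which reaches from 5687 to 32530 peaks, the lack of reads, and presence as the only measure, so that a change in height at an open region such as Nfkbia is not visible here. Stage and day of transposition cannot be told apart, and shared days hold few libraries of both ages.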

Other observations

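Other member regions were called in few libraries of 1 group. The third Il1b region and a Bcl3 region 9165 bp before its start were called only in old pre 1 and 2, the libraries of day 1. A region inside Nfkb1, chr3:135628512-135629093, and a region inside Traf1, chr2:34956897-34957388, were called only in young post 3 and 4, which shared day 6. In all, 3 member regions were called only in old libraries (2.75%, against 2.65% of all regions) and 7 only in young ones (6.42%, against 5.27%). After transplantation alone 7 were called (6.42%, against 8.995%), and before it alone also 7 (6.42%, against 2.71%), of which 4 were the neighbouring Nfkbiz regions of 1 stretch. These counts were not tested.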
